A study of Danio rerio with 4 samples.

Results

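The zebrafish genes with a *trim* or *ftr* (finTRIM) symbol were taken from the table of all genes by name, as symbols that begin with *trim* or *ftr* and a digit. They came to 70 of 19143 genes, of which 23 were finTRIM genes and 47 were *trim* genes. RNA had been sequenced from whole larvae at 4 days post-fertilization, from 2 pools of homozygous *nlrc3l* st73 mutants and 2 pools of their siblings, a mix of heterozygotes and wild-types. Larvae numbered 10 in one pool and 12 in the other for both genotypes, and *nlrc3l* encodes a NOD-like receptor. Before pooling, living larvae were stained with the microglia dye neutral red, and only mutants without stained microglia and siblings with them were used. This staining is described in the authors' methods, and the labels list no treatment.

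TRIM proteins typically carry a RING domain, 1 or more B-boxes and a coiled coil, and most act as ubiquitin ligases. Their C-terminal domain differs between subfamilies and selects the target. FinTRIMs are a branch of this family found in fish, many of them with a B30.2 domain at the C-terminus, and were first described in trout as genes induced by virus. They have multiplied in zebrafish into clusters of similar copies. Many *trim* genes, by contrast, have a counterpart in mammals, with roles in muscle, neurons, chromatin and innate immunity.

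The value given for each gene is its level, the authors' mean over the 4 libraries of counts normalized by DESeq2. It is a mean over mutants and siblings together, so it has no spread and says nothing of a difference between the genotypes, which is not reported here. Counts were not divided by transcript length, so an order of levels is an order of sequenced fragments and not of transcripts per cell. In whole larvae a low level from few expressing cells and a low level per cell cannot be told apart. No tests were made, since genes are not replicates. Summed over all genes, levels came to 8721330 normalized counts, from a lowest value of 9.18 to a median of 126. The table starts at that lowest value, so a gene without a row may have been read below it or counted under another name. It may also have been absent from the annotation used for counting, and these were not told apart. Of 19 markers of larval tissues 18 had a row, from *csf1ra*, listed for macrophages, at 41.4 to *mylpfa*, listed for skeletal muscle, at 46825. The microglia marker *p2ry12* had none, whereas *apoeb*, listed with it for microglia, had 7244. A level in whole larvae cannot be assigned to a single cell type, and the mutant pools were chosen to lack stained microglia. The value of *apoeb* is thus not a measure of microglia. The mutated gene *nlrc3l* had a level of 42.8.

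Few of the annotated finTRIM genes were in the table. Of 74 identifiers with a finTRIM symbol in the gene name table, 21 had a row, or 28.4%. For *trim* symbols it was 49 of 67 identifiers, or 73.1%, and for all identifiers it was 18512 of 29201, or 63.4%. The *trim* symbols themselves fell into separate parts. The *trim35* copies, a group of numbered fish genes, had a row for 9 of 25 identifiers, or 36.0%. The other *trim* genes had one for 40 of 42, or 95.2%, and those without were *TRIM54*, a muscle ligase of the MuRF type, and *TRIM67*, a neuronal member. The bloodthirsty genes (*btr*), a further fish branch of the TRIM family, had a row for 15 of 22 identifiers, or 68.2%. Among these branches, the low shares were thus those of the finTRIM genes and the *trim35* copies.

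**Figure D1:**
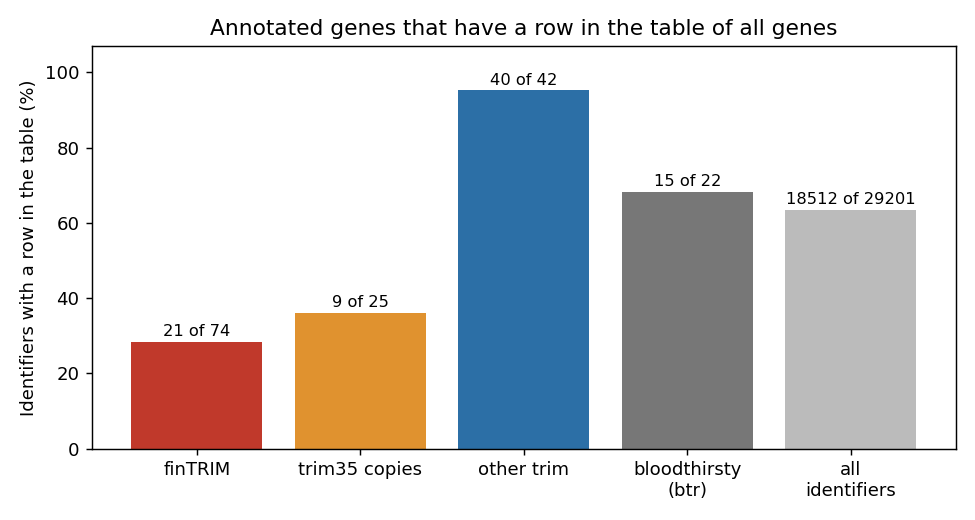
Percent of annotated gene identifiers, by family, that have a row in the table of all genes. Each bar starts at 0 and carries its counts, with 21 of 74 finTRIM identifiers at the left and 18512 of 29201 of all identifiers at the right.

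FinTRIM genes that did have a row were read at low levels. Their median was 24.8, against 89.1 for the *trim* genes and 126 for all genes. The lower quartile of all genes was 45.5. Of the 23 finTRIM genes 15 lay below it and 4, or 17.4%, lay above the median of all genes. Of the 47 *trim* genes 13 lay below that quartile and 18, or 38.3%, above that median. A level under 20 was found for 10 finTRIM genes, or 43.5%, for 4 *trim* genes, or 8.51%, and for 10.1% of all genes. The ratio of the finTRIM to the *trim* median was 0.278. That ratio depended on the low end of the table, and with genes under 50 left out it was 0.802, over 7 finTRIM and 31 *trim* genes. By geometric means it was 0.421. Without the *trim35* copies the other 39 *trim* genes had a median of 108, while the 8 *trim35* copies had 24.6, close to the finTRIM value. The *btr* genes with a row were lower still, with a median of 16.2 and 53.3% of them under 20. These medians leave out genes without a row. A row was found for 28.4% of the finTRIM, 36.0% of the *trim35* and 68.2% of the *btr* identifiers. The medians thus do not give the order of these families over all their annotated genes.

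**Figure D2:**
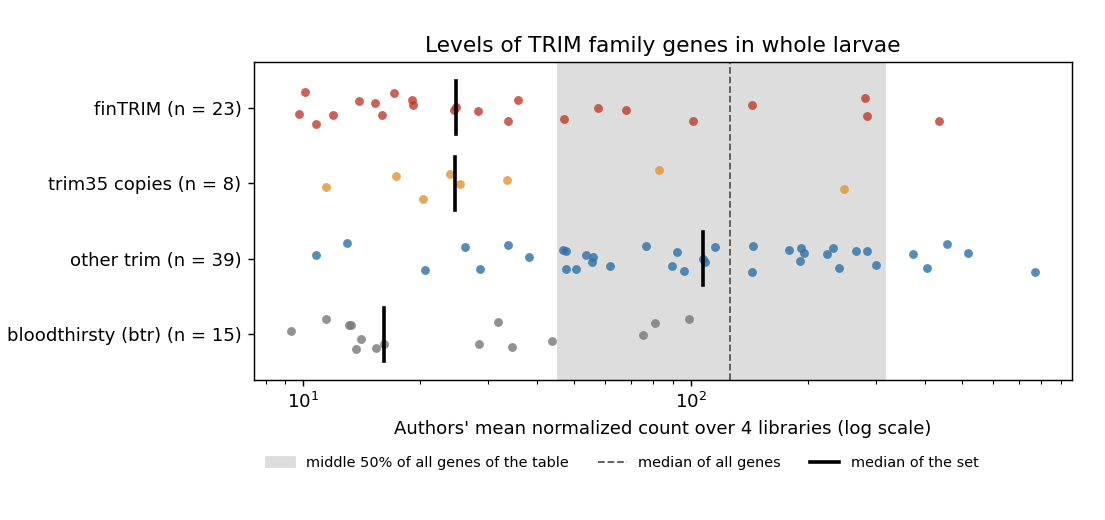
Level of each gene as the authors' mean normalized count over 4 libraries, on a log axis, with 1 point per gene. Black bars are the medians of the sets (24.8 for finTRIM, 24.6 for the trim35 copies, 108 for the other trim genes and 16.2 for the btr genes). The grey band is the middle 50% of all genes, and the dashed line is their median of 126.

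Among the finTRIM genes a few members were high, and levels fell from them without a wide gap. The highest was *ftr82*, at 435, followed by *ftr83* at 284 and *ftr67* at 281. Next came *ftr86* at 143 and *ftr51* at 101. In zebrafish *ftr83* is known for a constitutive antiviral role at mucosal surfaces such as the gills, through type I interferon. These levels placed *ftr82* at the 81.8 percentile of all genes, and *ftr83* and *ftr67* at the 72.2 and 71.9 percentiles. The 4 highest of the 23 members held 67.0% of the summed finTRIM level of 1707. For the 4 highest of 15 *btr* genes the share was 59.7%, for those of the 8 *trim35* copies 84.2% and for those of all 47 *trim* genes 31.3%, and these shares depend on the size of the set. The largest step in the finTRIM order was the 1.96-fold one between *ftr67* and *ftr86*. The sixth of the order, *ftr52p*, had a level of 68.0 and goes by *si:zfos-979f1.2* in the gene name table. Apart from *ftr14* at 57.6 and *ftr36* at 47.1, the remaining members were under 36, from *ftr24* at 35.9 downward.

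The low end of the finTRIM genes lay near the start of the table. The lowest 4 were *ftr64* at 11.9, *ftr01* at 10.8, a row named *ftr12* at 10.1 and *ftr72* at 9.75. At the middle of the order was a second row named *ftr12*, at 24.8. The rows share a symbol but have separate identifiers, and the gene name table gives *ftr15* for the one at 24.8 (ENSDARG00000074118) and *ftr12* for the one at 10.1 (ENSDARG00000053366). The symbol *ftr97* also stood on 2 rows, at 33.6 (ENSDARG00000055436, *ftr78* in the gene name table) and 28.3 (ENSDARG00000095125). Similar copies such as these can share reads, and how reads that fit several genes were counted is not given in the sources used here, so single finTRIM levels are uncertain.

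**Figure D3:**
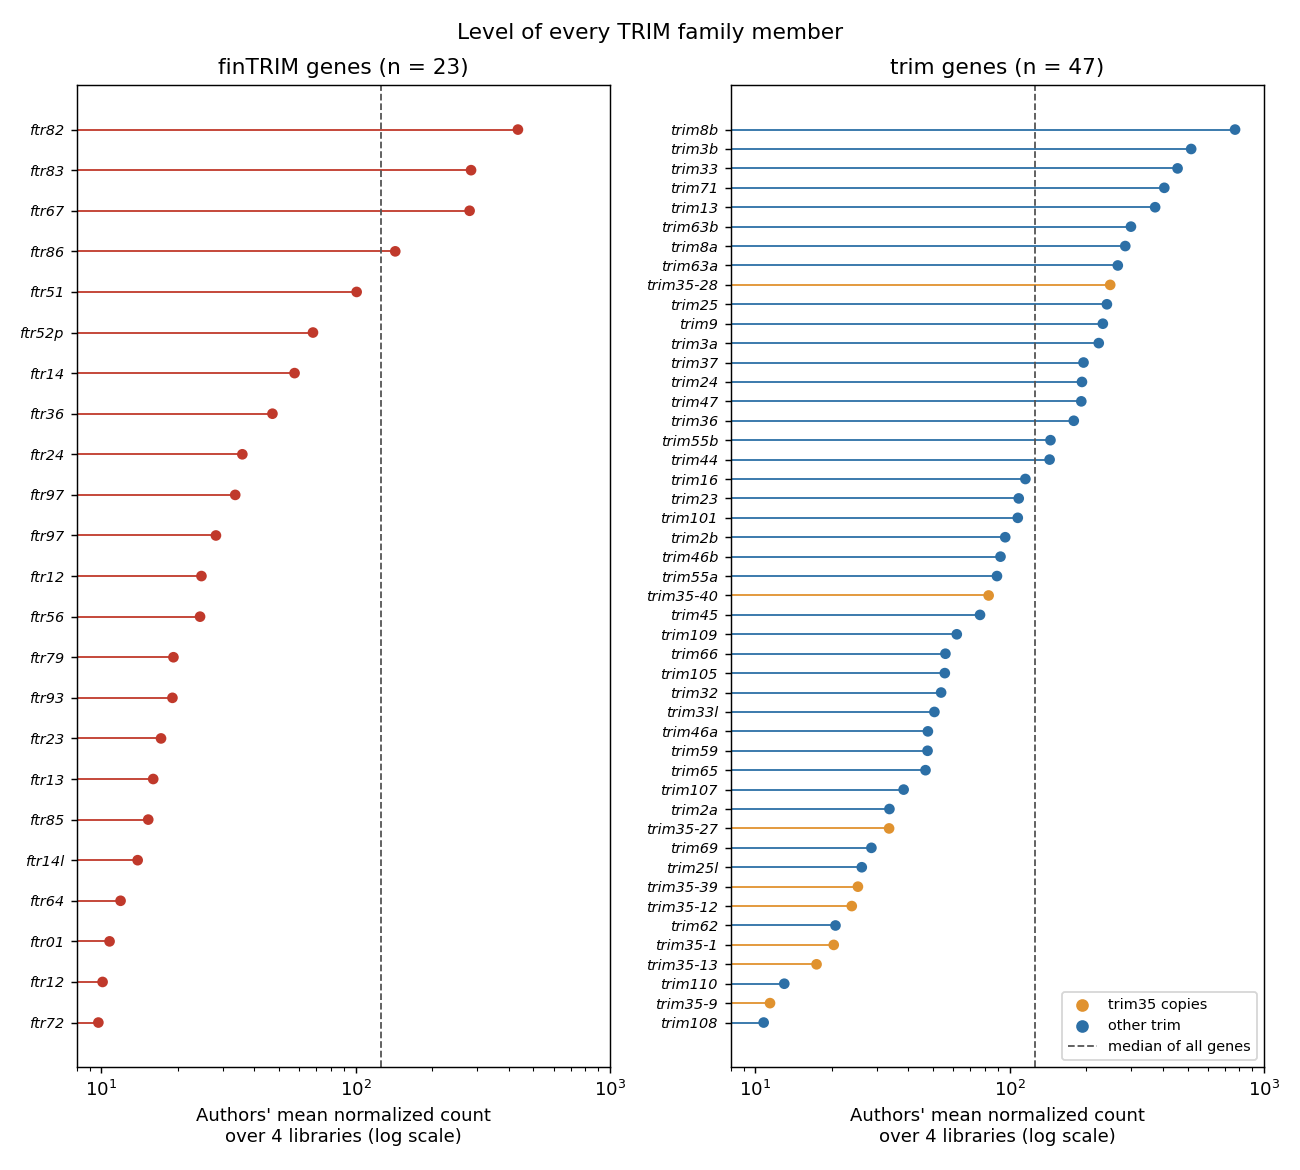
Level of every member, ordered from the highest down, as the authors' mean normalized count over 4 libraries on a log axis, with finTRIM genes at the left and trim genes at the right. The symbols ftr97 and ftr12 each stand on 2 rows, and 4 finTRIM and 18 trim genes lie beyond the dashed median of all genes.

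By gene order in the GRCz12tu assembly, used here only for which genes neighbour each other, finTRIM genes lay in runs. A run was counted where at most 5 other protein-coding genes lay between family members. Of 68 placed finTRIM genes 35 were on 1 chromosome and 50, or 73.5%, lay in 13 runs of up to 11 genes. Of 27 placed *trim35* copies 17, or 63.0%, lay in 6 runs of up to 6. Among the other *trim* genes 2 of 41 did, *trim47* and *trim3b*. Rows were counted for genes inside and outside the runs, and were matched mostly by symbol. A gene whose symbol changed between annotations can thus be counted as without a row. Of the finTRIM genes in runs 11 of 50 had a row, or 22%, against 9 of 18, or 50%, of those that stood alone. Of the *trim35* copies 2 of 17 in runs had one, or 11.8%, against 6 of 10 alone, or 60.0%. 1 of these 2, *trim35-45*, stood in the table under another symbol, at 13.9, and is not among the 70 genes. The part of reads shared between neighbouring copies in these counts was not tested.

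The runs were uneven in level. The longest, of 11 genes between *ftr38* and *ftr65*, had a row only for *ftr36*, at 47.1. The identifier of that row is not in the gene name table, so it was placed by symbol alone. The next, of 9 genes, had rows for *ftr23* at 17.2 and *ftr24* at 35.9. In the run of 5 genes the row was that of *ftr72*, at 9.75. A short run of 3 had a row for each gene, with *ftr13* at 16.0, *ftr14* at 57.6 and the gene placed as *ftr15* at 24.8. The highest finTRIM genes, *ftr82* and *ftr83*, formed a run of 2. *ftr67* shared a run with *ftr87*, which had no row. Several runs had no row at all, the longest of them the 4 genes from *ftr02* to *ftr07*. The 11 finTRIM genes in runs that had a row had a median of 35.9, from 9.75 to 435. The 9 alone that had a row had a median of 19.1, from 10.8 to 143, a range within that of the genes in runs. Genes without a row are left out, and they were a larger part of the genes in runs, so these medians do not order the 2 kinds of place. Of the 23 finTRIM genes with a row 20 were placed, and *ftr52p* and the rows named *ftr97* were not.

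**Figure D4:**
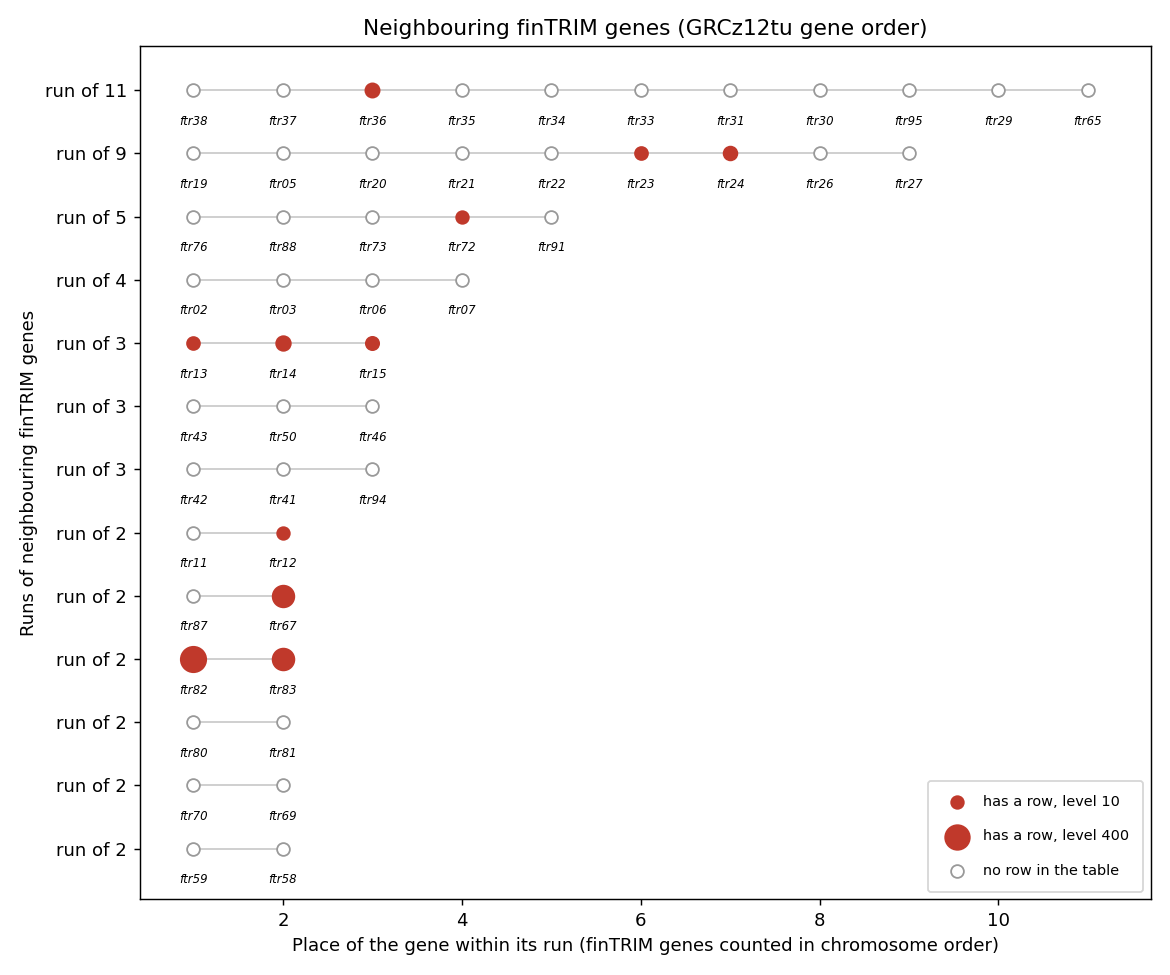
Runs of neighbouring finTRIM genes, 1 run per line and the longest at the top, with genes in chromosome order along the line. Red points have a row in the table, matched mostly by symbol, and grow with the level, and open points have none. The run of 11 genes has 1 red point whereas the pair ftr82 and ftr83 has the largest points.

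The highest *trim* gene was *trim8b* at 769, and its copy *trim8a* had 285. In mammals TRIM8 acts on the NF-kB and JAK-STAT pathways. Next were *trim3b* at 517, *trim33* at 457, *trim71* at 405, *trim13* at 373 and *trim63b* at 299.6. TRIM71, the vertebrate LIN-41, is a stem cell and developmental timing factor, and TRIM13 is a ligase of the endoplasmic reticulum membrane. The 4 lowest were *trim35-13* at 17.4, *trim110* at 13.0, *trim35-9* at 11.4 and *trim108* at 10.8. At the middle of the order was *trim55a*, at 89.1.

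The muscle group held MuRF ligases, which mark sarcomere proteins for breakdown in striated muscle of mammals. *TRIM54*, of the same type, had no row and is not in the group. Besides *trim63b* (MuRF1) it had *trim63a* at 266, *trim55b* (MuRF2) at 145, *trim101* at 108 and *trim55a* at 89.1. Its 5 genes spanned 3.36-fold and 3 of them were above the median of all genes. None was below the lower quartile.

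The chromatin group has PHD finger and bromodomain proteins that act as cofactors of transcription. In zebrafish *trim33*, the gene mutated in moonshine, is needed to make blood, and at 457 it was the highest of the 4. *trim24* had 192, *trim66* had 55.9 and *trim33l*, placed here by its symbol alone, had 50.6. The group thus ran over 9.03-fold, with 2 of 4 above the median of all genes.

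Genes with NHL or filamin repeats, through which TRIM proteins can bind RNA or other proteins, ran from *trim3b* at 517 to *trim2a* at 33.7, with a median of 96.0 over 7 genes. Between them lay *trim71*, *trim3a* at 224, *trim2b* at 96.0, *trim45* at 76.4 and *trim32* at 53.7. Mutation of human TRIM32 causes a limb-girdle muscular dystrophy. The COS box group, whose products bind microtubules, had a median of 135 over 4 genes. It ran from *trim9*, a brain ligase in mammals, at 232 to *trim46a* at 47.7. Each *trim* gene was put in a single group, so genes of other groups may also have this domain. TRIM46 organises microtubules at the start of the axon in mammals.

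Of the transmembrane pair *trim13* had 373 and *trim59* 47.5. *trim37*, which has a MATH domain, had 195 and *trim23*, which has an ARF domain, had 108. Among genes without a named C-terminal domain the 3 members ran from *trim8b* at 769 to *trim44* at 143, all above the median of all genes. The remaining 12 genes had a median of 42.5 and 2 above that median. *trim25*, which in mammals ubiquitinates the RNA sensor RIG-I, was the highest at 241, and *trim108* the lowest at 10.8. The related *trim25l* had 26.2, and *trim65*, which acts on the sensor MDA5 in mammals, had 46.7. *trim35-28* was the highest of the *trim35* copies at 248, with *trim35-40* next at 82.6, and the other 6 copies were at 33.6 or lower.

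6 *trim* genes had both an a and a b copy in the table, paired by symbol alone. Such letters usually name copies from the genome duplication of teleost fish, and the origin of these pairs was not tested. The b copy had the higher level in each of the 6. The difference was 2.85-fold for *trim2*, 2.70-fold for *trim8*, 2.31-fold for *trim3*, 1.93-fold for *trim46*, 1.62-fold for *trim55* and 1.13-fold for *trim63*. Copies may differ in transcript length, and the letters name no shared property, so the direction is a description of these 6 pairs.

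Most listed genes of the E1 and E2 families had high counts. RING ligases take ubiquitin from E2 enzymes that are charged by an E1. Of 12 genes of these families, E2 variants *ube2v1* and *ube2v2* included, all had a row. Their median was 717, from the E1 gene *uba1* at 2465 to *ube2d4* at 21.8, and 11 were above the median of all genes. Of 11 symbols for cytosolic nucleic acid sensing 6 had a row, with a median of 97.4. They ran from the kinase *tbk1* at 466 to the transcription factor *irf3* at 14.7, and only *tbk1* was above the median of all genes. Of 20 symbols of interferon response genes, the kind of program in which finTRIMs were found, 8 had a row. Their median was 68.7, from *stat1a* at 579 to *eif2ak2* at 11.9, with 3 above the median of all genes. The 15 *btr* genes had a median of 16.2, from *btr16* at 9.32 to *btr02* at 98.8, and none was above it. Of 9 symbols of TRIM genes under other names 5 had a row, from *fsd1* at 85.0 to *bspry* at 21.7, none above the median of all genes.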

How the data were processed

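Whole zebrafish larvae were sequenced by the authors as 4 libraries of poly(A) RNA. Reads were checked with FastQC, trimmed with Trimmomatic, aligned with HISAT2 and compared with DESeq2 by the authors. The submitters' processing notes name GRCz10 (danRer10), featureCounts, Subread 1.5.2 and R 3.3.1. Strand and multimapping settings are not given in the sources used here.

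The authors' deposited baseMean is a signal, the mean over the 4 libraries of counts divided by size factors, and was used as the level. The other columns hold the authors' own log2 fold changes, errors and p-values of mutants over siblings, and a second table holds the genes past their thresholds. Neither was used. No values per library were analysed, so no depth, spread or test is given.

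Members and lists were chosen with earlier results of these data known. Named genes are the 6 highest and 4 lowest of each set, the extremes and middle of groups and lists, all muscle and chromatin members, repeated symbols and *nlrc3l*. The a and b copies, genes in runs, *trim45*, *trim32*, *trim25l*, *trim65*, *trim35-40*, *ftr14*, *ftr24* and *ftr36* were named after their values were seen. Of 70 identifiers 69 were in the gene name table, 58 of them with the same symbol. The steps were tested on simulated data. Python 3.11.15, numpy 2.4.6, pandas 2.3.3 and matplotlib 3.10.9 were used.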

Additional observations from a re-analysis of the deposited data

How the results depend on the processing

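Of 24 alternatives to 10 results, 16 stayed within 1.5 times the value given. The other 8 were a minimum on the level or the change of summary. With a minimum of 20, the finTRIM median was 57.6 and its ratio to the *trim* median 0.60. With a minimum of 50, the finTRIM median was 143, the *trim* median 179 and that of all genes 204, the ratio of finTRIM to *trim* was 0.802, and finTRIM genes were 18.4% of the members in place of 32.9%. A minimum removes low genes by construction, and it kept 7 of 23 finTRIM and 31 of 47 *trim* genes at 50. By geometric means the ratio was 0.421. It stayed below 1 in each of these. The alternatives without the *trim35* copies and with other limits on runs were chosen after seeing the data. Levels per coding length were not run, as no transcript lengths were used. No paired analysis was possible because no values per library were analysed, and leaving out a library or another count test was not run for the same reason.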
